A study of Mus musculus with 12 samples.

Results

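Tubulins are the building blocks of microtubules, and the genes described here are 10 alpha- and beta-tubulin genes of the mouse, taken by their symbols. The array's gene table named at least 1 probe set for 8 of the 10, with 11 probe sets in all, against 17097 genes and 45037 probe sets on the whole array. All 11 passed the filter on low signal and exceeded its level on each of the 12 arrays. Tubb2b and Tuba4a had no named probe set and were not analysed here. Of the 8 measured genes, Tubb4a, Tubb2a, Tubb3 and Tuba1a are known for high levels in neurons and are called neuron-rich below. Tubb4b, Tubb5, Tubb6 and Tuba1b are found in many tissues and are called general. The 8 genes lie on chromosomes 17 (Tubb4a and Tubb5), 13 (Tubb2a), 8 (Tubb3), 15 (Tuba1a and Tuba1b), 2 (Tubb4b) and 18 (Tubb6) of GRCm38.p6.

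An alpha- and a beta-tubulin chain form the dimer that adds to the end of a growing microtubule. The mammalian genes encode chains that differ mostly in their tails, where motors, severing enzymes and modifying enzymes act. In the intestine, microtubules carry the spindle of dividing crypt cells and the apical-basal transport of mature epithelial cells.

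RNA came from colon adenoma cells of 3 mice, MKL358, MKL347 and MKL367, all labelled ki/+, a genotype that the labels do not spell out. Cells of each mouse were sorted by Mex3a status, an RNA-binding protein, and by Lgr5 status, a receptor known as a marker of intestinal stem cells. This gave 4 populations with 3 arrays each, 12 in all: the Mex3a+ cells split into Lgr5+ and Lgr5-, and the Mex3a- cells split likewise. Every mouse gave 1 array per population, and each array held a pool of different adenomas, of 500 cells for MKL358 and of 2000 cells for MKL347 and MKL367. No normal colon and no unsorted cells were among the samples analysed here, and how cells were called positive or negative is not given in the sources used here.

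Both sorted markers followed the labels in 3 of 3 mice: the Mex3a transcript by Mex3a status with a log2 difference of 0.69 (SE 0.12, limma adjusted p = 0.00199) and the Lgr5 transcript by Lgr5 status with 1.55 (SE 0.14, adjusted p = 0.00174). Lgr5 was also higher by Mex3a status (0.82, SE 0.14, adjusted p = 0.00168). The epithelial genes Vil1, Cdx1 and Cdx2 were lower in Mex3a+ cells (log2 differences -1.06, -1.31 and -1.11). All 10 of 10 epithelial markers were above the filter level on every array, as were 8 to 9 of 13 myeloid and 8 to 9 of 13 fibroblast markers. Array medians lay between 4.86 and 4.92 on the log2 scale.

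The promoters of the 3 genes with the largest rises in Mex3a+ cells and of the gene that fell, described below, are shown first. They are the 250 bases before the annotated start, 5′ to 3′ on the gene's own strand, from RefSeq on GRCm38.p6. Capitals mark letters of a searched motif, in either orientation.
Tubb4a chr17:57087601-57087850 (minus strand): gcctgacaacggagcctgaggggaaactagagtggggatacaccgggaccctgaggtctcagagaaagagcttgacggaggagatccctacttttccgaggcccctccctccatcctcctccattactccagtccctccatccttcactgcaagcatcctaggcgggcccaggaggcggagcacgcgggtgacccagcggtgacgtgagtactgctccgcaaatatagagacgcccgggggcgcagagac
Tubb2a chr13:34078009-34078258 (minus strand): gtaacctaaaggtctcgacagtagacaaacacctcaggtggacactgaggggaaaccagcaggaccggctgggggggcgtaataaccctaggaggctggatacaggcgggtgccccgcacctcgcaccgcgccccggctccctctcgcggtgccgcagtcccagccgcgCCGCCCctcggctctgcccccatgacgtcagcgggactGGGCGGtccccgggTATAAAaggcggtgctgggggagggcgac
Tuba1a chr15:98953502-98953751 (minus strand): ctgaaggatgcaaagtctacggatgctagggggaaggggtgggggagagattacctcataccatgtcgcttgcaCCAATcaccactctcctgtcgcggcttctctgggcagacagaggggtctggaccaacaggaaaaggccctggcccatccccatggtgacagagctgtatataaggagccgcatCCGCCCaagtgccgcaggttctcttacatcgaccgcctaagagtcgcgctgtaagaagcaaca
Tubb4b chr2:25224703-25224952 (minus strand): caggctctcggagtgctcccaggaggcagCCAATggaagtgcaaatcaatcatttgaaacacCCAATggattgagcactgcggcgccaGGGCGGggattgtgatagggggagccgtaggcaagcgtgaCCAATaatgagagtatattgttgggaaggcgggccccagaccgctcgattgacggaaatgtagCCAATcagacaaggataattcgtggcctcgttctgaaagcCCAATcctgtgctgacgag

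Of the 10 genes, 8 had a promoter window in the RefSeq table, and 32851 windows were searched on both strands. The CCAAT box (CCAAT, the core bound by NF-Y) occurred 5 times before Tubb4b and 1 time before Tuba1a, and was not found before Tubb4a or Tubb2a. At least 1 CCAAT was found in 33.8% of all windows, and 5 or more in 0.213%. The GC box (GGGCGG, the core bound by Sp1) occurred 2 times before Tubb2a and 1 time each before Tuba1a and Tubb4b, against at least 1 in 32.7% of windows. TATAAA was found before Tubb2a and in 12.4% of windows. None of the 4 windows held a TCF/LEF word (CTTTGAA or CTTTGAT, 7.48% of windows), the left part of the REST site (TTCAGCACC, 0.301%) or the Myc E-box (CACGTG, 6.02%). A match describes these letters only, and a missing word says only that it is not in this window.

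The first comparison set Mex3a+ against Mex3a- cells, 6 arrays against 6, as the average of the effects in Lgr5+ and Lgr5- cells. Of the 8 tubulin genes, each counted by its brightest probe set, 4 rose in Mex3a+ cells (Tubb4a, Tubb2a, Tuba1a and Tubb6), 1 fell (Tubb4b), and 3 did not pass the test (Tubb3, Tubb5 and Tuba1b). A probe set was called at a Benjamini-Hochberg adjusted p under 0.05 from limma over 28353 probe sets. By that rule 9.96% of all tested probe sets were higher and 13.7% lower. Blocking on the mouse gave the same 4 and 1 genes, against 16.7% of probe sets higher and 21.3% lower. The neuron-rich class had 3 of 4 genes higher and a median log2 difference of 0.93, the general class 1 higher and 1 lower of 4 with a median of 0.0062. Over all tested probe sets the median was 0.0038. Over the other settings tried, the neuron-rich median lay between 0.685 and 1.17. The lower end was reached with Tubb2a left out of the class. The upper end was reached with a stricter filter level (5.51), which Tubb3 did not pass.

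Tubb4a encodes a beta-tubulin known from brain, where neurons and myelinating oligodendrocytes hold it. It had log2 signals of 8.62, 9.21 and 9.20 in Mex3a+ Lgr5+ cells (here and below in the order MKL358, MKL347, MKL367) and 8.30, 9.02 and 9.06 in Mex3a+ Lgr5- cells. In Mex3a- Lgr5+ cells it had 6.49, 7.37 and 7.58, and in Mex3a- Lgr5- cells 5.65, 6.65 and 7.61. All 6 Mex3a+ arrays were thus above all 6 Mex3a- arrays, and the Mex3a- arrays of MKL358 were the lowest. Tubb4a was 4.03-fold higher in Mex3a+ cells (log2 difference 2.01, SE 0.30, 95% interval 1.35 to 2.67, adjusted p = 0.000867). The difference was 2.39 in MKL358, 2.11 in MKL347 and 1.53 in MKL367. Among 12592 genes it ranked 12 by the size of the rise.

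Tubb2a, a beta-tubulin abundant in neurons of the brain, was measured by a pair of probe sets. The brighter one, of the s_at type, can share sequence with other members of the family, so part of its signal may come from them. It had log2 signals of 9.14, 9.46 and 9.39 in Mex3a+ Lgr5+ cells and 8.94, 9.17 and 9.11 in Mex3a+ Lgr5- cells, against 7.87, 8.07 and 8.20 in Mex3a- Lgr5+ cells and 7.40, 8.14 and 8.48 in Mex3a- Lgr5- cells. Mex3a+ and Mex3a- arrays did not overlap. The signal was 2.25-fold higher in Mex3a+ cells (1.17, SE 0.15, adjusted p = 0.000417), by 1.40, 1.21 and 0.90 in the mice MKL358, MKL347 and MKL367. The other probe set was 1.73-fold higher (0.79, SE 0.093, adjusted p = 0.000234), also without overlap. Both probe sets of Tubb2a therefore moved the same way, with the smaller difference on the dimmer one.

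Tuba1a encodes the main alpha-tubulin of young neurons. Its probe set, of the x_at type that may bind transcripts of close relatives, had log2 signals of 11.63, 11.80 and 11.78 in Mex3a+ Lgr5+ cells and 11.68, 11.72 and 11.82 in Mex3a+ Lgr5- cells. It had 10.82, 11.12 and 11.37 in Mex3a- Lgr5+ cells and 10.66, 10.94 and 11.42 in Mex3a- Lgr5- cells. The sides did not overlap, and the Mex3a+ arrays lay closer together (SD 0.074, n = 6) than the Mex3a- arrays (SD 0.304, n = 6). The difference was 1.61-fold (0.69, SE 0.12, adjusted p = 0.00182), with 0.92, 0.73 and 0.41 in MKL358, MKL347 and MKL367.

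Tubb3, the beta-tubulin most used as a marker of neurons, was dim. It had log2 signals of 5.10, 5.43 and 5.17 in Mex3a+ Lgr5+ cells and 4.67, 4.96 and 4.63 in Mex3a+ Lgr5- cells, against 4.81, 4.86 and 4.73 in Mex3a- Lgr5+ cells and 4.80, 4.54 and 4.90 in Mex3a- Lgr5- cells. The filter level was 4.40. The 3 Mex3a+ Lgr5+ arrays were the highest 3 of the 12, and the other 9 overlapped. The average Mex3a effect was 0.22 (SE 0.090, 95% interval 0.024 to 0.417) and did not pass the test over all probe sets (adjusted p = 0.0986, and 0.0674 at the lowest among the other settings tried).

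**Figure D1:**
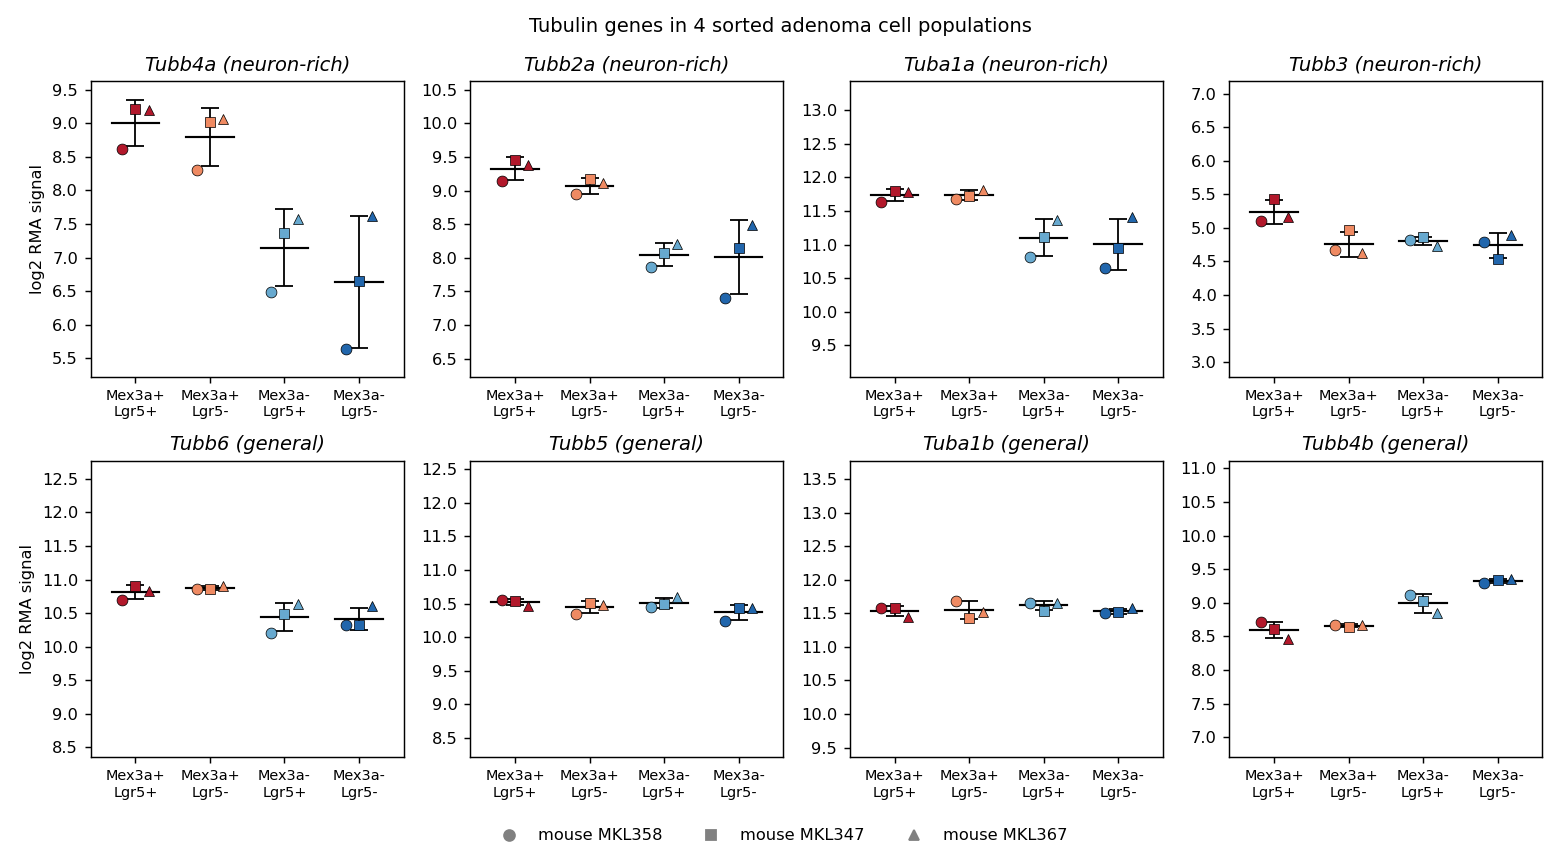
Log2 signal (y axis) of the 8 measured tubulin genes, each by its brightest probe set, in the 4 sorted populations (x axis), with 1 point per mouse and bars for the mean ± SD of 3 arrays. Tubb4a, Tubb2a, Tuba1a and Tubb6 have all 6 Mex3a+ arrays above all 6 Mex3a- arrays, and Tubb4b has all 6 below.

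Tubb4b, a beta-tubulin of many tissues and of ciliary axonemes, was the member that fell in Mex3a+ cells. It had log2 signals of 8.71, 8.60 and 8.47 in Mex3a+ Lgr5+ cells and 8.68, 8.64 and 8.67 in Mex3a+ Lgr5- cells. In Mex3a- Lgr5+ cells it had 9.12, 9.03 and 8.84, and in Mex3a- Lgr5- cells 9.30, 9.34 and 9.35. All Mex3a+ arrays lay below all Mex3a- arrays, with the Mex3a- Lgr5- arrays highest. Tubb4b was 1.45-fold lower in Mex3a+ cells (-0.53, SE 0.066, 95% interval -0.68 to -0.39, adjusted p = 0.000298), and the 3 mice gave -0.51, -0.56 and -0.53.

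Tubb6, a broadly expressed beta-tubulin, rose by less than Tuba1a. Its brighter probe set had log2 signals of 10.70, 10.90 and 10.83 in Mex3a+ Lgr5+ cells and 10.86, 10.87 and 10.91 in Mex3a+ Lgr5- cells, against 10.21, 10.49 and 10.63 in Mex3a- Lgr5+ cells and 10.32, 10.32 and 10.60 in Mex3a- Lgr5- cells. The sides did not overlap. The difference was 1.33-fold (0.42, SE 0.076, adjusted p = 0.00246). The dimmer probe set gave 0.33 (SE 0.093, adjusted p = 0.0216), with overlapping arrays.

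Tubb5 and Tuba1b, the beta- and alpha-tubulin of most dividing and resting cells, had nearly level values. The brighter Tubb5 probe set ranged over 10.34 to 10.55 in Mex3a+ arrays and 10.24 to 10.59 in Mex3a- arrays, and its effect was 0.042 (SE 0.053, 95% interval -0.073 to 0.157, adjusted p = 0.614). The dimmer Tubb5 probe set gave 0.18 (SE 0.077, adjusted p = 0.122, and 0.0256 with the mouse as a block). Tuba1b, by an x_at probe set, ranged over 11.44 to 11.69 in Mex3a+ arrays and 11.50 to 11.66 in Mex3a- arrays, with an effect of -0.029 (SE 0.048, 95% interval -0.134 to 0.075, adjusted p = 0.704). Its interval leaves out differences as large as those of Tubb6 or Tubb4b.

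Arrays whose sides did not overlap occurred in 5 of the 8 genes, 4 higher and 1 lower, against 4.5% and 7.03% of all tested probe sets. Without mouse MKL347, only Tubb2a kept its call as higher in the fit without the block. Tubb4a then had a log2 difference of 1.96 (adjusted p = 0.0526), Tuba1a 0.66 (0.0773) and Tubb6 0.38 (0.0839), while the calls over all probe sets fell to 528 higher and 1008 lower, against 2823 and 3888 with all mice. With the mouse as a block and without MKL347, all 4 genes and Tubb4b kept their calls (Tubb4a adjusted p = 6.44e-05, Tuba1a 0.000595, Tubb6 0.0014, Tubb4b 0.000927).

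**Figure D2:**
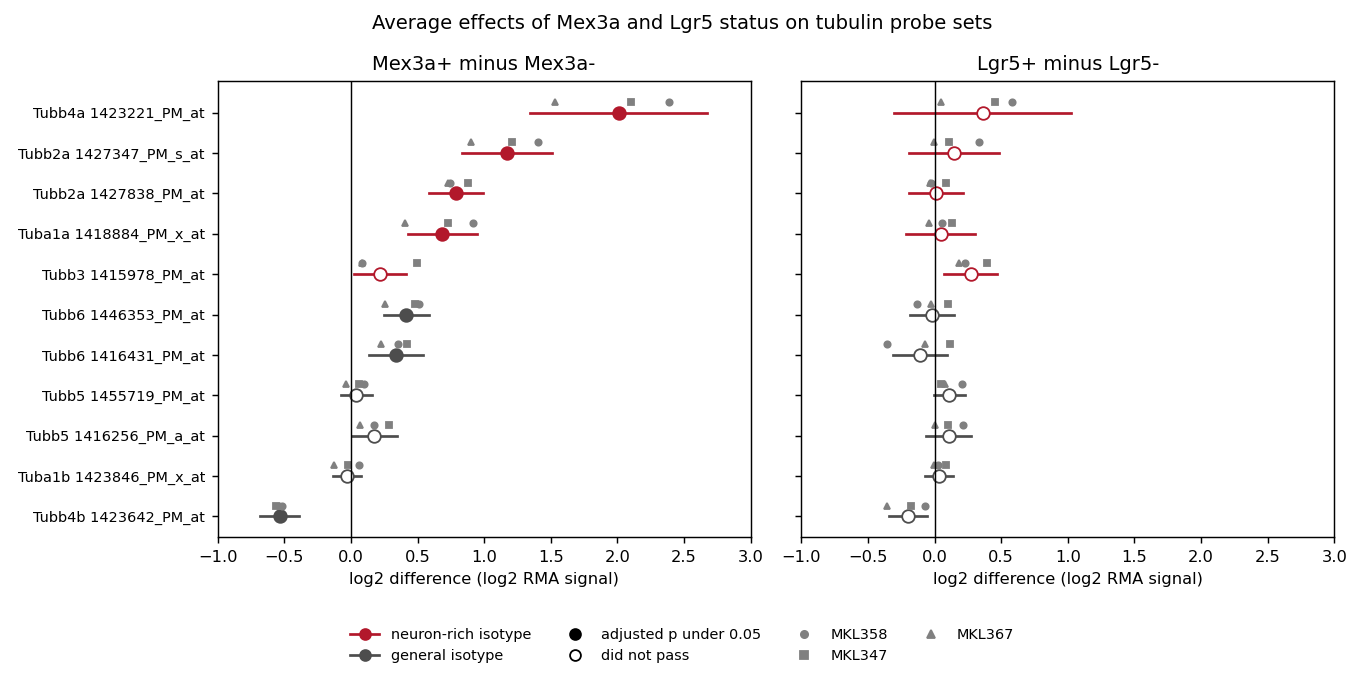
Log2 differences (x axis) by Mex3a status and by Lgr5 status for the 11 probe sets, as averages over the other marker with 95% intervals; filled symbols passed an adjusted p of 0.05 and grey points are the 3 mice. The Mex3a effects spread between -0.53 for Tubb4b and 2.01 for Tubb4a, and no Lgr5 effect is filled.

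To set the classes side by side, the level of each gene relative to its mean over the 12 arrays was averaged within a class. The neuron-rich mean lay between 0.20 and 0.78 in Mex3a+ arrays and between -1.07 and -0.095 in Mex3a- arrays. For the general genes the values were -0.085 to 0.020 and -0.048 to 0.102, and they overlapped. Within the neuron-rich class, Tubb3, near the filter level, had a smaller average Mex3a effect than the other 3 genes, which did not pass the test. Within the general class, the rise of Tubb6 and the fall of Tubb4b were in opposite directions. The class means are descriptions of these 8 genes, and the difference between the classes was not tested. In sorted bulk samples, fewer cells of a type and less RNA per cell cannot be told apart.

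**Figure D3:**
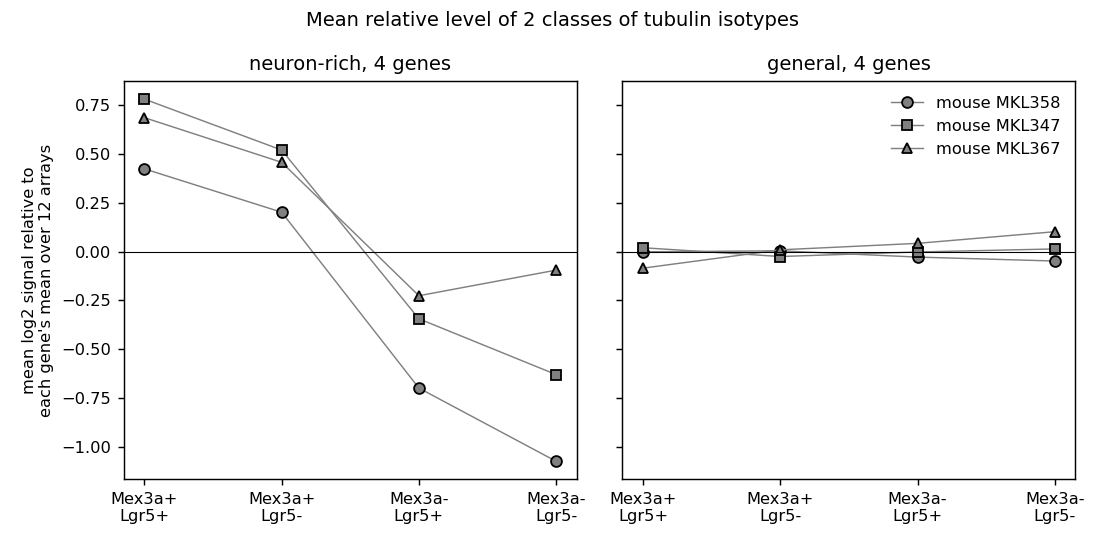
Mean level of the 4 neuron-rich and the 4 general tubulin genes on each of the 12 arrays, in log2 units relative to each gene's own mean over all arrays (y axis), by population (x axis) and mouse. The neuron-rich mean is above 0 on the 6 Mex3a+ arrays and below 0 on the 6 Mex3a- arrays, and the general mean stays between -0.085 and 0.102.

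The Mex3a effect was next taken within each Lgr5 state, 3 arrays against 3. In Lgr5+ cells, 3 of the 8 genes rose and 1 fell, where 2.56% of all tested probe sets were higher and 3.06% lower. Tubb4a gave 1.86 (SE 0.43, adjusted p = 0.0305), Tubb2a 1.28 (SE 0.22, adjusted p = 0.00982), Tuba1a 0.63 (SE 0.17, adjusted p = 0.0483) and Tubb4b -0.40 (SE 0.093, adjusted p = 0.0303). Tubb3 (0.43, SE 0.13, adjusted p = 0.0701) and Tubb6 (0.37, SE 0.11, adjusted p = 0.0682) passed with the mouse as a block, at 0.0282 and 0.00329. That fit therefore called 5 genes higher and 1 lower, against 8.67% and 10.8% of probe sets. In the fit without the block, 1 array decided calls in this comparison. Without the Mex3a+ Lgr5+ array of MKL347, none of the 8 genes was called by its brightest probe set, although the dimmer Tubb2a probe set was. Over all probe sets the calls then fell to 129 higher and 176 lower, against 727 and 868 with all arrays. Without the Mex3a+ Lgr5+ array of MKL367, or the Mex3a- Lgr5+ array of MKL358 or of MKL347, only Tubb2a was called. Without mouse MKL347 or without MKL367, the fit without the block called none of the 8. Over all probe sets it called 2 higher and 21 lower without MKL347, and 81 and 176 without MKL367. Settings that kept all arrays, or used the block without 1 mouse, gave 2 to 5 tubulin genes higher and 0 to 1 lower.

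In Lgr5- cells, 4 genes rose and 1 fell, against 5.23% and 8.67% of all probe sets. Tubb4a gave 2.16 (SE 0.43, adjusted p = 0.00812), Tubb2a 1.06 (SE 0.22, adjusted p = 0.00916), Tuba1a 0.74 (SE 0.17, adjusted p = 0.0146) and Tubb6 0.46 (SE 0.11, adjusted p = 0.0159). Tubb4b gave -0.66 (SE 0.093, adjusted p = 0.00171). Tubb3 gave 0.0082 (SE 0.13, adjusted p = 0.977). Without mouse MKL347, the fit without the block called 0 of the 8 genes. Over all probe sets it then called 29 higher and 196 lower, against 1484 and 2457 with all mice. Without the Mex3a- Lgr5- array of MKL347, or the Mex3a+ Lgr5- array of MKL367, 2 genes stayed called as higher, Tubb4a and Tubb2a. With the mouse as a block and without MKL347, the same 4 genes were called higher and Tubb4b lower.

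Whether the Mex3a effect differed between Lgr5+ and Lgr5- cells was tested by the interaction. None of the 8 genes passed, and 0% of all tested probe sets did by limma, with or without the mouse as a block, although 751 of 28353 had an unadjusted p under 0.05. The largest member interaction at an unadjusted p under 0.05 was that of the dimmer Tubb2a probe set (0.43, SE 0.19, unadjusted p = 0.0389), followed by Tubb3 (0.42, SE 0.18, unadjusted p = 0.0363), both with an adjusted p of 1. For Tubb4a the interaction was -0.30 (SE 0.61, and 0.27 with the block), and it passed in neither fit (adjusted p = 0.844 with the block).

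By Lgr5 status, none of the 8 genes was called, and only 0.0317% of all tested probe sets were (9 of 28353). With the mouse as a block the share was 1.3%, again with 0 tubulin genes. At an unadjusted p under 0.05 there were 2 of the 8 genes, where 5.85% of all tested probe sets (1658) had one. Tubb3 was higher in Lgr5+ than in Lgr5- cells by 0.27 (SE 0.090, unadjusted p = 0.0111, adjusted p = 0.633), and Tubb4b was lower (-0.20, SE 0.066, unadjusted p = 0.0106, adjusted p = 0.623). Tubb4a had a difference of 0.36 (95% interval -0.30 to 1.03, adjusted p = 0.998), Tubb2a 0.15 (-0.19 to 0.48) and Tuba1a 0.048 (-0.21 to 0.31). For Tuba1a the interval does not reach the size of its Mex3a effect, and the same holds for Tubb4a and Tubb2a.

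Within one Mex3a state, 3 arrays against 3, no tubulin gene was called by Lgr5 status, as against 0% of probe sets in Mex3a+ cells and 0.0282% in Mex3a- cells. Within Mex3a+ cells, Tubb3 was higher in the 3 Lgr5+ arrays than in the 3 Lgr5- arrays, without overlap (0.48, SE 0.13, unadjusted p = 0.0026, adjusted p = 1, and 0.333 with the block). Arrays without overlap in this direction were found for 4.99% of all probe sets. Within Mex3a- cells, Tubb4b was lower in Lgr5+ than in Lgr5- cells, again without overlap (-0.33, SE 0.093, unadjusted p = 0.0041, adjusted p = 0.507, and 0.0593 with the block), as were 4.63% of probe sets. The brighter Tubb5 probe set was higher there, at 10.45 to 10.59 in Lgr5+ and 10.24 to 10.43 in Lgr5- arrays (0.14, SE 0.074, unadjusted p = 0.0799, adjusted p = 0.912, and 0.301 with the block), as were 5.62% of probe sets without overlap. None of these 3 differences passed the test.

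Across the populations Tubb4a had its highest mean in Mex3a+ Lgr5+ cells (9.01 ± 0.34, SD, n = 3), then Mex3a+ Lgr5- (8.80 ± 0.43), Mex3a- Lgr5+ (7.15 ± 0.58) and Mex3a- Lgr5- cells (6.64 ± 0.98). Between the Lgr5 states the test was not passed in Mex3a+ cells (differences of 0.31, 0.19 and 0.14 in MKL358, MKL347 and MKL367, adjusted p = 0.843 with the block) or in Mex3a- cells (0.85, 0.72 and -0.035, adjusted p = 0.26 with the block). Without MKL367, the fit with the block called the difference in Mex3a- cells (0.78, adjusted p = 0.0406). The genes with the profile most like it over the 12 arrays, out of 12591 others, were Notum (Pearson r 0.991), Lef1 (0.991), Slc30a2 (0.988), Adam12 (0.987) and Ptprs (0.986). Notum encodes a secreted Wnt deacylase, Lef1 a transcription factor of the Wnt pathway, Slc30a2 a zinc transporter, Adam12 a metalloprotease and Ptprs a receptor phosphatase. The arrays shared the split by Mex3a status, and these genes had Mex3a effects of 1.45, 1.94, 1.002, 2.21 and 0.996 on the log2 scale, so the likeness is a description only.

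The other tubulin genes did not follow. Of 6 tested among 7 named on the array, 0 passed in either direction in the average Mex3a effect, with or without the block, nor at an unadjusted p under 0.05 from limma, and their median was -0.0041. The largest difference by p was that of Tubd1, a delta-tubulin of centrioles (-0.23, SE 0.14, adjusted p = 0.261). Tubg1, the gamma-tubulin that seeds microtubules, gave 0.034 (SE 0.068), and Tuba8, an alpha-tubulin, 0.034 (SE 0.058).

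The counts of the gene lists below stand against the shares of all tested probe sets given above, 9.96% higher and 13.7% lower, and 16.7% and 21.3% with the block. The lists count genes by their brightest probe set. In a fit on the brightest probe set of each gene, 1248 of 12592 genes were higher and 2174 lower. Among 22 genes of tubulin folding, 2 rose in Mex3a+ cells, 1 fell and 19 did not pass, with a median of -0.061. Tbcel, a relative of folding cofactor E, was 1.78-fold higher (0.83, SE 0.11, adjusted p = 0.000349), and Arl2, a GTPase that works with the folding cofactors, gave 0.26 (SE 0.067, adjusted p = 0.0152), but 0.10 (adjusted p = 0.131) as the mean of all its probe sets. Pfdn6, a prefoldin subunit that hands new tubulin to the chaperonin, gave -0.31 (SE 0.059, adjusted p = 0.00291). With the block, 2 rose and 4 fell.

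Of 19 tested enzymes and partners of tubulin modification, 1 rose and 1 fell, and with the block 5 rose and 3 fell. Atat1, the acetyltransferase of alpha-tubulin, gave 0.51 (SE 0.13, adjusted p = 0.0178). Agbl5, a carboxypeptidase that removes glutamates from tubulin, gave -0.39 (SE 0.094, adjusted p = 0.0108), but -0.025 (adjusted p = 0.766) as the mean of all its probe sets. Svbp, the partner of the vasohibins that remove the last tyrosine, gave -0.20 (SE 0.072, adjusted p = 0.0583, and 0.0257 with the block). Of 16 genes of microtubule nucleation, 1 fell and 0 rose. It was Haus7, a subunit of augmin, which branches spindle microtubules (-0.31, SE 0.089, adjusted p = 0.0251). Tpx2 and Haus1 gave -0.24 each (adjusted p = 0.0636 and 0.0708, and 0.00726 and 0.0349 with the block). With the block 5 of the 16 fell, and with each array centred on its median 4 fell.

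Microtubule-binding and -severing genes moved in both directions, 8 higher and 4 lower of 31, with a median of 0.067. Mapre2, an end-binding protein, was 2.76-fold lower in Mex3a+ cells (-1.47, SE 0.20, adjusted p = 0.000454). Map9, a microtubule-associated protein of spindles and cilia, was 2.27-fold higher (1.18, SE 0.20, adjusted p = 0.00153), and Katnal1, a severing enzyme of the katanin family, 1.47-fold higher (0.55, SE 0.092, adjusted p = 0.00144). With the block 8 were higher and 7 lower.

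Structures built from microtubules were counted in the same way. Of 21 tested genes of the primary cilium, 10 rose and 1 fell (median 0.24), among them Ift122 (1.003, SE 0.17, adjusted p = 0.00183) and Ift22 (0.47, SE 0.079, adjusted p = 0.00157), both of the intraflagellar transport machinery, and the kinesin Kif3a (0.57, SE 0.11, adjusted p = 0.00276). With the block 12 rose and 1 fell. Of 8 tested motile cilia genes, 0 rose and 1 fell by limma without the block, and with it 1 rose (Rfx3, a transcription factor of ciliated cells, 0.22, adjusted p = 0.0832, and 0.0163 with the block) and 1 fell. Foxj1, a master regulator of motile cilia, was above the filter level on 0 of 12 arrays. The same held for Rsph4a, Spag6, Hydin, Ccdc40, Tekt2 and Pifo. Rfx2, Rfx3, Ccno, Dnaaf1, Rsph1 and Tekt1 were above it on all 12, Dnah5 on 8, Ccdc39 on 7 and Dnah9 on 2. Of 19 genes of the G2 and M phases, 10 fell and 0 rose (median -0.22), with Birc5 at -0.51 (SE 0.063, adjusted p = 0.000296), Ccnb2 at -0.54 (SE 0.077, adjusted p = 0.000619) and Cdc20 at -0.48 (SE 0.073, adjusted p = 0.000897). With the block 14 fell and 0 rose. By Lgr5 status, 0 genes of any of these microtubule, cilium and cell cycle lists were called by limma in either fit. At an unadjusted p under 0.05 there were 14 of their 142 tested genes, against 5.85% of all tested probe sets.

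In the fit without the block, these counts depended on the mice MKL347 and MKL367. The calls over all probe sets did so too. They were 528 higher and 1008 lower without MKL347, 1131 and 1590 without MKL367, and 3002 and 3931 without MKL358. With all mice they were 2823 and 3888. With the mouse as a block and without MKL347, 2769 were higher and 4114 lower. Without MKL347 the fit without the block called 0 primary cilium genes higher, 4 G2 and M phase genes lower, and 2 binding genes higher and 1 lower. Without MKL367 the same counts were 5, 5, 4 and 2, and without MKL358 they were 10, 8, 7 and 5. Without MKL347, and likewise without MKL367, 1 folding gene was called higher and 0 lower, and 0 genes of the modification and nucleation lists were called. Without MKL358, 2 folding genes were called higher and 2 lower, 3 modification genes higher and 1 lower, and 2 nucleation genes lower. In the fit without the block, 37 genes named here that are no tubulins were called by Mex3a status. Of these, 12 kept the call in that fit without MKL347, 24 without MKL367 and 31 without MKL358. The calls of Mex3a (adjusted p = 0.0721), Lgr5 (0.076), Notum (0.0752), Lef1 (0.066), Slc30a2 (0.0568) and Ptprs (0.113) were among those lost without MKL347. Leaving out 1 array ended the call of 7 of the 37, Haus7 (any of 5 arrays), Scg3 (5), Alox5ap (1), Sh2d6 (7), Dnaaf1 (8), Fbln1 (9) and Tyrobp (8), at adjusted p-values up to 0.104.

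Because Tubb3 and its relatives are known from neurons, markers of neurons and of other cells that sorted adenoma cells could hold were read beside the tubulins. Of 18 neuron markers named on the array, 7 to 9 were above the filter level on any array. Rbfox3, Elavl3, Gap43, Ret, Nos1, Th and Dbh were above it on all 12 arrays. Syt1, Elavl4, Nefl, Nefm, Nefh, Vip and Ina were above it on 0 of 12. Snap25, Syp, Prph and Uchl1 were above it on 1, 3, 1 and 5 arrays. The level of the neuron list was the mean over its 18 named genes, each relative to its own average, with genes below the filter level included. The other list levels below were taken likewise. For neurons it was -0.0040 to 0.105 in Mex3a+ arrays and -0.095 to 0.110 in Mex3a- arrays. The overlap came from 1 array, the Mex3a- Lgr5- array of MKL358 at 0.110, and the other 5 Mex3a- arrays lay between -0.095 and -0.063, below all 6 Mex3a+ arrays. Of its 9 tested genes, 1 rose (Uchl1, 0.74, SE 0.15, adjusted p = 0.00418), 1 fell (Ret, -0.72, SE 0.081, adjusted p = 0.000184) and 7 did not pass, Nos1 among them (0.21, adjusted p = 0.0666, and 0.0165 with the block). Their median difference was 0.18, against 0.0038 over all tested probe sets. With the block 4 rose and 1 fell. The part of these genes in the tubulin differences was not tested.

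Glial markers were scarce, with 2 of 5 above the filter level on each array, and of these Erbb3 fell (-0.39, adjusted p = 0.00768). Of 10 enteroendocrine genes 1 rose (Scg3, 0.22, adjusted p = 0.0247) and 0 fell. Of 7 tuft cell genes Avil rose (0.72, adjusted p = 0.0149) and Alox5ap (-0.59) and Sh2d6 (-0.76) fell, and with the block 1 rose and 3 fell. Of 9 fibroblast and smooth muscle genes 1 rose (Fbln1, 0.29, adjusted p = 0.0456), and with the block 2. Of 8 endothelial genes 0 passed by limma in the fit without the block (1 at an unadjusted p under 0.05), and 1 rose with it. Of 9 myeloid and neutrophil genes Mpo rose (0.29) and Cd14 (-1.02) and Tyrobp (-0.84) fell, and with the block 1 rose and 4 fell. Of 10 epithelial genes 8 fell and 0 rose by limma, and with the block 8 fell and 1 rose. Their list level was -0.45 to -0.090 in Mex3a+ and 0.113 to 0.440 in Mex3a- arrays, and the part of all these cell lists in the tubulin differences was not tested.

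Some single Mex3a- arrays stood out in these lists. The fibroblast list reached 0.73 on the Mex3a- Lgr5+ array of MKL367 and lay between -0.187 and 0.044 on the other 11. The enteroendocrine list reached 0.64 on the Mex3a- Lgr5- array of MKL358, and the tuft cell list 0.67 on the Mex3a- Lgr5- array of MKL347. The myeloid list was high on both Mex3a- arrays of MKL358, at 0.71 (Lgr5-) and 0.45 (Lgr5+). The neuron list had 0.110 on the Mex3a- Lgr5- array of MKL358, near the 0.105 of the Mex3a+ Lgr5+ array of that mouse. Tubb4a was lowest of all arrays on the Mex3a- Lgr5- array of MKL358, at 5.65. Leaving out any single array kept all 5 member calls of the average Mex3a effect, with Tubb4a between 1.76 and 2.25 over all left-out arrays and mice.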

How the data were processed

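Gene expression was measured on 12 Affymetrix mouse arrays, 1 per sorted population and mouse. Per the labels' protocols, 25 ng of total RNA was amplified as whole transcriptome cDNA and 8 µg of it was fragmented and biotin-labelled. The authors deposited log2 signals after RMA (per the submitters' processing notes), whose software and settings no source used here states, and these values entered every step unchanged. Probe sets were named through GEO's platform table (28898 of 45141 with 1 symbol, 551 with several, 0 of these with a tubulin of the list), with symbols updated through gene IDs (0 changed), and 104 control probe sets were left out. RefSeq tables on GRCm38.p6 gave the promoters.

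Each probe set above the 40th percentile (4.40) on at least 3 arrays (28353) entered limma (version 3.58.1, R 4.3.3) with population means, an intensity trend and 2-sided tests, adjusted over all of them in each of 7 comparisons. Errors are limma's standard errors, and every adjusted p is limma's. Unless stated, errors and intervals are from the fit without the block and so include differences between mice. For the average Mex3a effect of Tubb4a, the SE was 0.30 without and 0.137 with the block. A gene was counted by its brightest probe set. The mouse number in the titles gave the pairing: with population means removed, the 18 same-mouse array pairs had correlations of 0.341 to 0.682 and the 48 pairs between mice -0.698 to 0.146, so values from blocking on the mouse are printed beside the named genes and list counts of the Mex3a effect that it changes. The number of arrays limits the precision. Alternatives were other filters, scalings, probe set rules, no trend, array weights, the block, and leaving out each mouse or array. The block without each mouse was added after the data had been seen. The script was checked on simulated data.

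Named were all members, up to 3 genes per list by the smallest p of the average Mex3a effect, Mex3a and Lgr5, and the 5 genes most like Tubb4a. Members and lists were chosen with earlier results of these data known. Figures: matplotlib 3.10.9, Python 3.11.15.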

Additional observations from a re-analysis of the deposited data

Results flagged for a closer look

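For the dimmer Tubb2a probe set, the Lgr5 effect had opposite signs in Mex3a+ and Mex3a- cells in every mouse. It was 0.23, 0.26 and 0.19 in Mex3a+ cells and -0.28, -0.088 and -0.25 in Mex3a- cells of MKL358, MKL347 and MKL367. The difference between the effects was 0.43, with an unadjusted p of 0.0389 and an adjusted p of 1 from limma's interaction (0.371 with the mouse as a block), so it did not pass. The brighter Tubb2a probe set gave 0.22 (unadjusted p = 0.497).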

How the results depend on the processing

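Over the planned and added settings, 464 recomputed counts of tubulin calls and class medians stayed close to the reported ones and 24 moved. Counts of 0 in both fits were taken as close, and most counts of the average Lgr5 effect were of this kind. A class median was taken as close when it moved by less than its SD between mice. The other recomputed results were those of single probe sets, named genes and list counts. Of these, 3951 stayed the same, 156 lost a call, 53 gained one, 165 list counts moved and 0 calls reversed. Left-out mice and arrays gave 1 to 4 tubulin genes higher and 1 lower for the average Mex3a effect, 0 to 4 higher and 0 to 1 lower in Lgr5+ cells, and 0 to 4 higher and 0 to 1 lower in Lgr5- cells. In Lgr5+ cells, 5 were higher with the mouse as a block and 5 with array weights, and 0 were lower with a further quantile normalization (Tubb4b -0.34, adjusted p = 0.0587). With the mouse as a block and without MKL347, 0 were lower there (Tubb4b adjusted p = 0.0538). With the block and without MKL367, 1 gene, Tubb4a, was higher by Lgr5 status on average (0.52, adjusted p = 0.046) and in Mex3a- cells (0.78, adjusted p = 0.0406). The median Lgr5 effect of the neuron-rich genes, 0.21, lay between 0.054 and 0.287, lowest without the Mex3a- Lgr5- array of MKL358. The cause of these shifts was not tested, beyond the fewer arrays of the left-out fits.

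The block changed no other member call of the average effects beside the dimmer Tubb5 probe set. Further quantile normalization called both Tubb5 probe sets higher (0.14 and 0.27, adjusted p = 0.048 and 0.0445), and hence 5 genes. The dimmer Tubb6 probe set lost its call without MKL347 (adjusted p = 0.187), without MKL367 (0.116), and without the Mex3a+ Lgr5+ or the Mex3a- Lgr5- array of MKL347 (0.0531 and 0.0524). Over all probe sets the average Mex3a effect gave 4731 higher and 6033 lower calls with the block, 528 and 1008 without MKL347 and 1131 and 1590 without MKL367, against 2823 and 3888. Tubb3 lay near the filter level, and the s_at and x_at probe sets of Tubb2a, Tuba1a and Tuba1b could not be assigned to 1 family member alone.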
